A study of Mus musculus with 4 samples.

Results

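The 35 genes described here encode nuclear receptors other than the thyroid hormone, retinoid X, Rev-erb and ROR receptors, and Rarb is not among them either. They were taken as a given list of symbols whose rule uses no measured value, although the list was drawn up with earlier results of these data known. They are 35 of 21887 protein-coding genes on chromosomes 1 to 19, X and Y of the RefSeq annotation of GRCm38, and all 35 symbols matched it. The study immunoprecipitated chromatin of mouse striatum with a GS tag carried by TRα1, an alpha form of the thyroid hormone receptor. The animals carry Gad2-Cre, a driver expressed in GABAergic neurons, and a Thra-GS allele. The material consists of 3 immunoprecipitated (IP) fractions, pulled down on IgG-coated magnetic beads, and 1 input made without antibody, and all of it is striatum from that 1 genotype. Age, sex, hormone treatment and the number of animals per fraction are not stated in the labels, nor is it stated whether the fractions came from separate animals. The deposited result is 1 list of 7484 peaks of IP over input, with no value per fraction, and the values below therefore have no replicate error. An IP from animals without the tag was not analysed here, so a peak is a place of enriched chromatin, with no measure of what the beads hold without the tag.

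Nuclear receptors are transcription factors that bind DNA through paired zinc fingers, and most of them switch genes in answer to a small lipid-soluble ligand. Retinoic acid receptors, PPARs, LXRs, the vitamin D receptor and the xenobiotic receptors bind DNA as heterodimers with a retinoid X receptor, as the thyroid hormone receptors do, and they read related half-sites at different spacings. Steroid receptors bind mostly as homodimers, and orphan receptors are those first found without a known ligand. In the developing forebrain, retinoic acid receptors and the orphan receptors of the Nr2f group are known for roles in the patterning and maturation of neurons. The thyroid hormone receptor is known for the element called DR4, which is a direct repeat of the half-site AGGTCA with 4 bases between the copies.

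A receptor gene was marked when a peak summit, the base of greatest fragment stacking in a peak, lay within the gene span extended by 30 kb on both sides. In RefSeq's table of promoter windows for GRCm38.p6, which run from 250 bases before to 50 bases after an annotated start, 32 of the 35 genes were found, with 48 windows. A single one of these 48 windows held a summit, and it belongs to Rara, while 1.63% of all 32851 windows in the table held one. The 3 windows printed next are shown because the first holds that Rara summit, the second holds the summit closest to Esrra, and the third is the promoter of Esrra itself, which holds none. Capitals mark the half-site AGTTCA in the first and second, on either strand, and in the third a DR4 with 1 mismatch allowed in each half-site.
Rara inner promoter, chr11:98939461-98939760, plus strand: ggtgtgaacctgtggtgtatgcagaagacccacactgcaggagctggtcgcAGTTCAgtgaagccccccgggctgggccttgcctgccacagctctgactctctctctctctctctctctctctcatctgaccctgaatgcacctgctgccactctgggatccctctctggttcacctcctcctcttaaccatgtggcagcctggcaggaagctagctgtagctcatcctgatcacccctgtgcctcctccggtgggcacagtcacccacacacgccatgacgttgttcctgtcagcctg
Prdx5 promoter, chr19:6910057-6910356, minus strand: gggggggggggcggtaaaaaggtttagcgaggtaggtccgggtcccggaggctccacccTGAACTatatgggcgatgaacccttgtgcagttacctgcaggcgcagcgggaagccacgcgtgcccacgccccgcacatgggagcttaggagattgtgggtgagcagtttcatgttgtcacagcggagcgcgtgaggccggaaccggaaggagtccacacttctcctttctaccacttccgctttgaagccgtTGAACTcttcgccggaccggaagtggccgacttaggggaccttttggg
Esrra promoter, chr19:6921759-6922058, minus strand: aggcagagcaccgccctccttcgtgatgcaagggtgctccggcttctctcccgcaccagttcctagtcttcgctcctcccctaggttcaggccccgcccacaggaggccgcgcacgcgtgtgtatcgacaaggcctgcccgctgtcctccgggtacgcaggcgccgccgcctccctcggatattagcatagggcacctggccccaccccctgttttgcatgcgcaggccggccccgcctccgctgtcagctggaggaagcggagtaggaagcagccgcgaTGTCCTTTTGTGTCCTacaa
In the Rara window the summit is base 113, which is 138 bp before the annotated start. That base lies in a run of 27 bases of CT dinucleotides, from base 99 to base 125, and the capital AGTTCA ends 56 bp away. A run of 10 or more CT or AG repeats is found in 27 of all 32851 windows, and 1 of those 27, the Rara window, held a summit. In the Prdx5 window the summit is base 275, which is 24 bp past the start of Prdx5, and the nearer of its AGTTCA copies ends 17 bp from it.

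The exact half-site AGGTCA, searched on both strands, was found in 5 of the 28 windows of marked receptor genes, 17.9%, and in 16.3% of all 32851 windows. These 5 windows belong to Pparg, with 2, and to Rara, Rarg and Nr6a1, and no summit lies in any of them. The half-site AGTTCA was found in 3 of the 28, 10.7%, and in 14.0% of all windows. The exact DR4 (AGGTCA, any 4 bases, AGGTCA) was found in none of the 28 and in 0.0152% of all windows. With 1 mismatch allowed in each half-site, the promoter of Esrra held one, with the letters AGGACACAAAAGGACA on the opposite strand, and 1.75% of all windows held one. These are matches of letters only, and the windows do not cover most of the peaks described below, whose sequences were not analysed here.

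Summits marked 17 of the 35 receptor genes, 48.6% (95% exact interval 31.4 to 66.0), while 32.4% of the 21852 other protein-coding genes were marked by the same rule. The receptor genes are longer than most, with a median of 49.7 kb against 17.1 kb, and a longer gene has a wider window. Each was therefore set beside all other protein-coding genes within 1.5 times of its length, and the mean of these shares was 39.2%, or 13.7 genes in 35. The interval of the receptor genes' share holds that value, but it covers counting error over genes only. No test of a difference was made, and the gap changed with the rule, as given below. Per Mb of window, the receptor genes had 4.78 pairs of a peak and a gene, and the other protein-coding genes had 4.72. By class, 2 of 2 retinoid genes, 2 of 5 steroid genes, 6 of 9 lipid and metabolite genes and 7 of 19 orphan genes were marked. Genes of similar length would give 0.673 of the retinoid genes, 2.51 of the steroid genes, 3.28 of the lipid genes and 7.26 of the orphan genes. The lipid and retinoid classes thus lie above their similar-length values, and the steroid and orphan classes within 1 gene of theirs. A rule chosen after seeing the data also required a similar number of protein-coding genes in the window. It gave 0.918 of the retinoid, 2.52 of the steroid, 3.69 of the lipid and 6.88 of the orphan genes. With 2 to 19 genes in a class the exact intervals are wide, from 29.9% to 92.5% in the lipid class and from 16.3% to 61.6% in the orphan class, so these counts do not separate the classes.

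**Figure D1:**
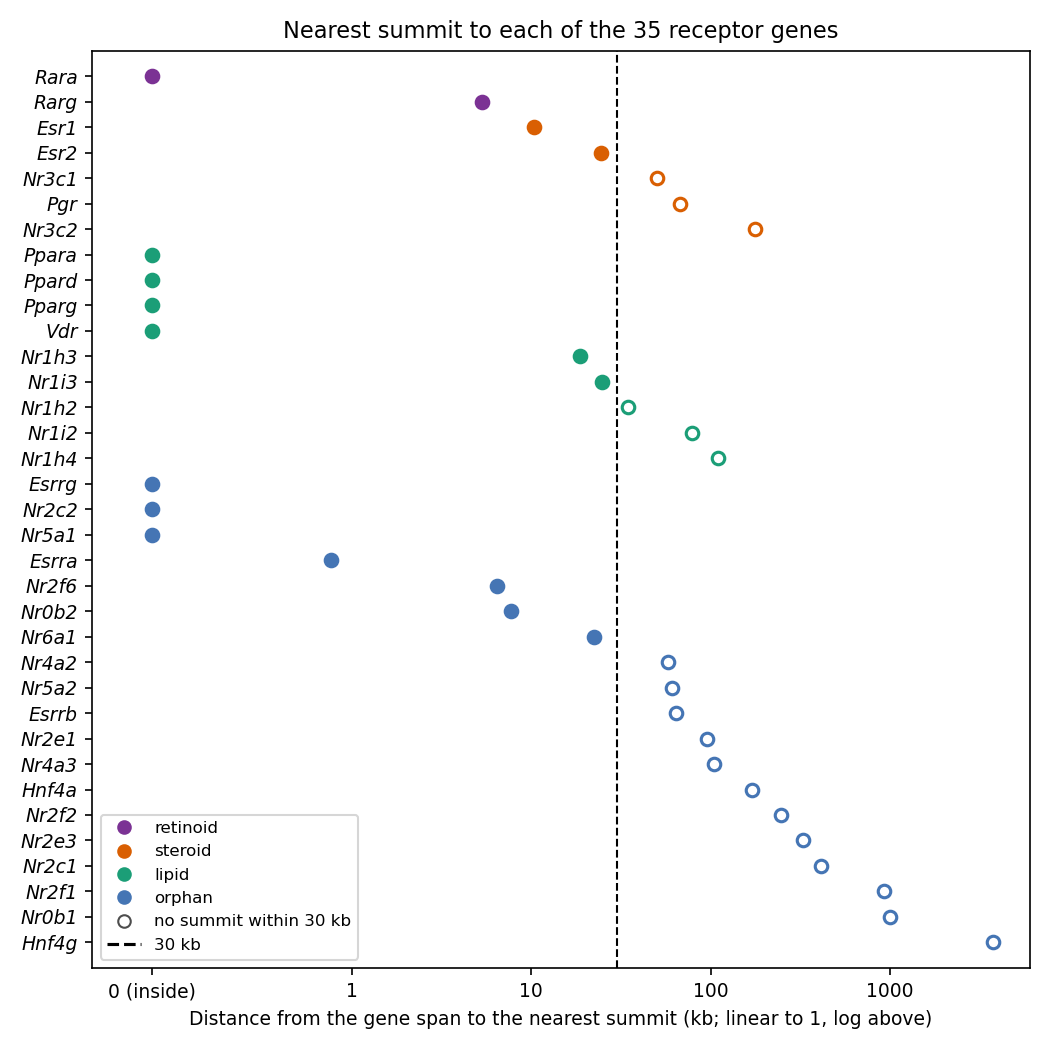
Distance in kb from the span of each of the 35 receptor genes to its nearest summit, by class, with summits inside the span at 0. The 17 filled points are the marked genes and lie left of the dashed line at 30 kb, and the 18 open points lie from 34.5 kb outward.

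**Figure D2:**
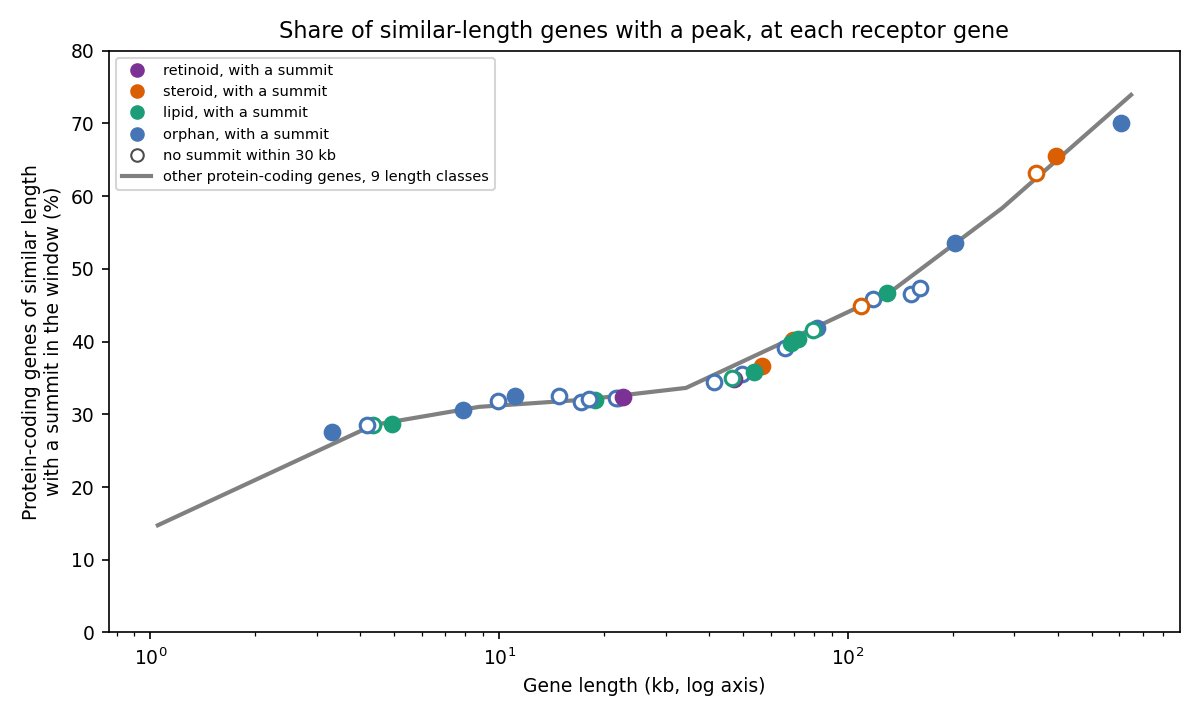
Each point is a receptor gene, placed by its length in kb (log axis) and by the share of other protein-coding genes within 1.5 times of that length that hold a summit in their window. Filled points are marked genes and open points are not, the line gives the share in 9 length classes, and marked and unmarked genes are found all along the range of lengths.

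Both retinoid receptor genes of the 35, Rara and Rarg, had peaks, and of these Rara had the stronger. The other retinoic acid receptor gene, Rarb, is not among the 35 and had 4 summits inside it, with pileups of 13.2 to 57.3. Rarb spans 651 kb, and 71.1% of genes of similar length were marked. Rara, which encodes retinoic acid receptor alpha, spans chr11:98927800-98974942 and had 2 summits inside it. The first, in the peak chr11:98939405-98939742, had a pileup of 52.6, which is 56 stacked fragments, over a background of 1.89, and a fold enrichment of 18.6. Pileup, fold and q are the authors' own values for each peak: pileup is the scaled height of stacked fragments at the summit, and fold is the ratio of pileup to background with 1 added to both. This peak ranked 510 of 7484 by pileup. It lies at an inner one of 4 annotated Rara starts, in a stretch also annotated as the predicted protein-coding gene Gm46294. The second Rara summit lay 10.2 kb past that same start and had a pileup of 20.7 and a fold of 7.50. Rarg, which encodes retinoic acid receptor gamma, had 1 summit 5304 bp before its outermost start, with a pileup of 24.4 and a fold of 8.47. That summit lay outside any protein-coding or long non-coding RNA gene. Of the 32 genes with an annotated start, Rara alone had a summit within 1 kb of one, while 6.56% of the 17460 other protein-coding genes in that table did.

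Peaks were found at 6 of the 9 lipid and metabolite receptor genes, and all 3 PPAR genes, whose products sense fatty acids, were among them. Ppard, at chr17:28232754-28301469, had the highest pileup of any receptor gene here, 102 (109 fragments), with a fold of 35.8 and a −log10 q of 130. That peak, chr17:28226073-28226616, ranked 49 of 7484 and lay 6498 bp before the start of Ppard, inside Def6, a guanine nucleotide exchange factor gene. Within Ppard itself a summit 50.9 kb past the start had a pileup of 21.6 and a fold of 5.65 over a background of 3.00. A further summit, 29998 bp before the start and so 2 bp inside the limit of the window, had 19.7 and lay in the zinc finger gene Zfp523.

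Ppara had 3 weaker summits, with pileups of 14.1, 21.6 and 18.8 at 29.7 kb and 19.5 kb before its start and 13.6 kb past it. The outermost lies in Lncppara, a long non-coding RNA gene, and the other two in no other protein-coding gene. Pparg, known as the regulator of fat cell formation, had 1 summit in the peak chr6:115366851-115367185, with a pileup of 30.1 and a fold of 10.7. It was inside the gene, 4667 bp past the nearest of 3 annotated starts. Vdr, the vitamin D receptor gene, likewise had 1 summit inside it, in the peak chr15:97889929-97890204, 18.2 kb past its start, with a pileup of 33.8 and a fold of 9.64.

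The remaining marked genes of this class had their summits in neighbours. Nr1h3, which encodes the oxysterol receptor LXR alpha, had a pileup of 17.8 at 18.7 kb beyond its end, inside Madd. Nr1i3, which encodes the constitutive androstane receptor of the liver, had a pileup of 28.2 at 24.8 kb before its start, inside Pcp4l1. Nr1h2, the gene of LXR beta, was the unmarked gene closest to the limit, at 34.5 kb. Nr1i2, the gene of the pregnane X receptor, was 78.3 kb from the nearest summit, and Nr1h4, the gene of the bile acid receptor FXR, was 110 kb from it.

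**Figure D3:**
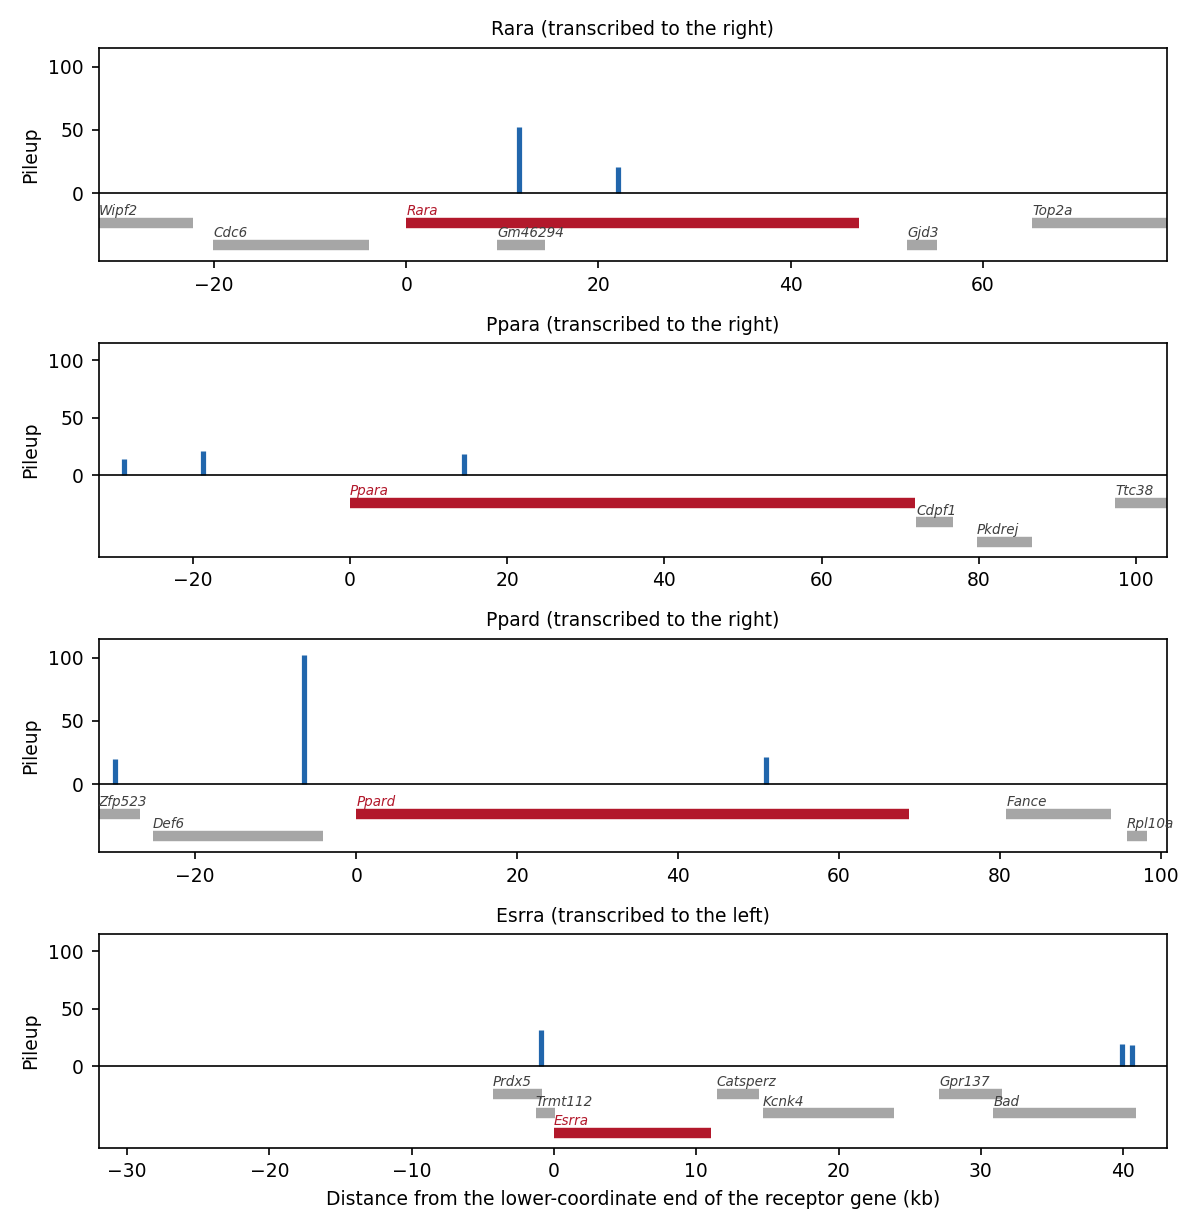
Summits (blue, height is pileup in scaled fragments) and protein-coding genes (bars, the receptor gene in red) around Rara, Ppara, Ppard and Esrra, in kb from the lower-coordinate end of the receptor gene. The tallest Rara summit stands inside Rara, and the tallest Ppard summit, of 102, stands in Def6 before the start of Ppard.

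Of the 5 steroid receptor genes the estrogen receptor genes were marked, and no summit lay inside any of the 5. Esr1, the gene of estrogen receptor alpha, spans 394 kb and had 1 summit, 10.4 kb beyond its end and outside any protein-coding gene. That summit had a pileup of 26.3 and a fold of 7.21, and the protein-coding gene nearest to it was Syne1, not Esr1. Of genes as long as Esr1, 65.5% were marked. Esr2, the gene of estrogen receptor beta, had 1 summit 24.5 kb beyond its end, in the peak chr12:76095686-76096064, with a pileup of 47.0 and a fold of 16.6. It lay inside Syne2, a nuclear envelope gene. Nr3c1, the glucocorticoid receptor gene, was 50.4 kb from the nearest summit, Pgr, the progesterone receptor gene, 67.3 kb, and Nr3c2, the mineralocorticoid receptor gene, 177 kb. Nr3c2 spans 347 kb, and 63.2% of other genes of similar length were marked.

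Among the 19 orphan receptor genes, 7 were marked, and 3 of these had a summit inside the gene. Nr5a1, which encodes steroidogenic factor 1, held the strongest of them, in the peak chr2:38700886-38701268, with a pileup of 67.6 (72 fragments), a fold of 22.2 and rank 238 of 7484. The same summit marked its neighbour Nr6a1, the germ cell nuclear factor gene, from 22.3 kb beyond the end of that gene, so 25 pairs of a peak and a gene rest on 24 peaks. Esrrg, the estrogen-related receptor gamma gene and at 606 kb the longest of the 35, had 1 summit, deep inside it. That summit was 119 kb from the nearest annotated start and had a pileup of 29.1 and a fold of 7.53, and 70% of other genes of that length were marked. Nr2c2, which encodes testicular receptor 4, had 1 summit inside it, 6582 bp past its start, with a pileup of 14.1 and a fold of 5.22, below the lower quartile of the list, which is 16.9.

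Esrra, the estrogen-related receptor alpha gene, which is known as a regulator of mitochondrial genes, had 3 summits, each of them in another gene. The closest, in the peak chr19:6909948-6910160, lay 895 bp beyond its end and 11.7 kb from its start, with a pileup of 31.9 over a background of 4.0, and a fold of 6.59. It lies where Prdx5, an antioxidant enzyme gene, and Trmt112, a methyltransferase cofactor gene, overlap. The other two summits lay in Bad, a cell death regulator gene, 28.8 kb and 29.5 kb before Esrra, with pileups of 19.7 and 18.8. Nr0b2, the gene of the small heterodimer partner, had a pileup of 45.1 and a fold of 15.4 at 7741 bp before its start, inside Nudc. A further summit, 21.3 kb beyond the end of Nr0b2 and inside Gpatch3, had a pileup of 22.5. Nr2f6, the gene of the receptor EAR2, had a pileup of 40.4 and a fold of 13.8 at 6421 bp beyond its end, inside Use1.

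No summit lay within 30 kb of the other 12 orphan genes. Those nearest to a summit were Nr4a2, known for its part in dopamine neurons, at 58.1 kb, Nr5a2 at 60.9 kb and Esrrb at 64.3 kb, followed by Nr2e1 at 95.2 kb. Nr4a3 was at 104 kb, Hnf4a, a regulator of liver genes, at 170 kb, Nr2f2 at 247 kb, Nr2e3, a photoreceptor gene, at 326 kb, and Nr2c1 at 412 kb. Nr2f1, which encodes the cortical patterning factor COUP-TFI, was 923 kb from any summit, Nr0b1, on chromosome X, 1003 kb, and Hnf4g 3751 kb. Of the 18 unmarked receptor genes, 8 were within 100 kb of a summit and 10 beyond it, with a median of 107 kb. The window of the marked genes held a median of 4 protein-coding genes, themselves included, and that of the unmarked genes 2. Over all other protein-coding genes the median was 3. Of the marked receptor genes, 2 were alone in their window, and of the unmarked, 7. Other protein-coding genes were not split by marking here, so these contrasts have no background. Among other genes similar both in length and in number of genes in the window, 40.0% were marked, where length alone gave 39.2%. The part of neighbouring genes in the marking was also examined by changing the rule, as given below.

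Summits lay inside the receptor gene in 9 of the 25 pairs, 36%, and inside the gene in 40.9% of 11136 pairs over other protein-coding genes. Those other genes were not matched for length, and the receptor genes are longer. Of the 16 pairs outside, 9 were before the start and 7 beyond the end of the receptor gene. In 12 of these 16 the summit was inside another protein-coding gene. For 7 of the 17 marked genes, Nr1h3, Nr1i3, Esr2, Esrra, Nr0b2, Nr2f6 and Nr6a1, every summit was of that kind. Of all summits in the list, 59.5% lay inside some protein-coding gene. The same 2 counts were not made over other protein-coding genes, so they are not shown to be particular to the receptor genes. The receptor gene was the nearest protein-coding gene in 12 pairs, at 9 genes, and those are Rara, Rarg, Ppara, Ppard, Pparg, Vdr, Nr2c2, Esrrg and Nr5a1. Of the marked genes, 12 had 1 summit, 2 had 2 and 3 had 3.

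The 24 peaks had pileups of 14.1 to 102 and their median was 25.4, where that of the whole list was 21.6, between quartiles of 16.9 and 31.0. Above the upper quartile were 8 of the 24 peaks and below the lower quartile were 2. Their fold ranged from 5.22 to 35.8 with a median of 7.64, while the list had a median of 6.91. Of the 24, 17 had a −log10 q of at least 10, or 70.8%, where 53.3% of all peaks did. By class, the median pileup was 24.4 over 3 peaks at retinoid genes, 36.6 over 2 at steroid genes, 21.6 over 10 at lipid genes and 29.1 over 9 at orphan genes. Peaks inside the receptor gene had a median pileup of 29.1 (9 peaks) and those outside 25.4 (16 peaks), with the peak at Nr5a1 and Nr6a1 counted in both. The pileups ran from 14.1 to 67.6 inside and from 14.1 to 102 outside, so the ranges overlap.

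**Figure D4:**
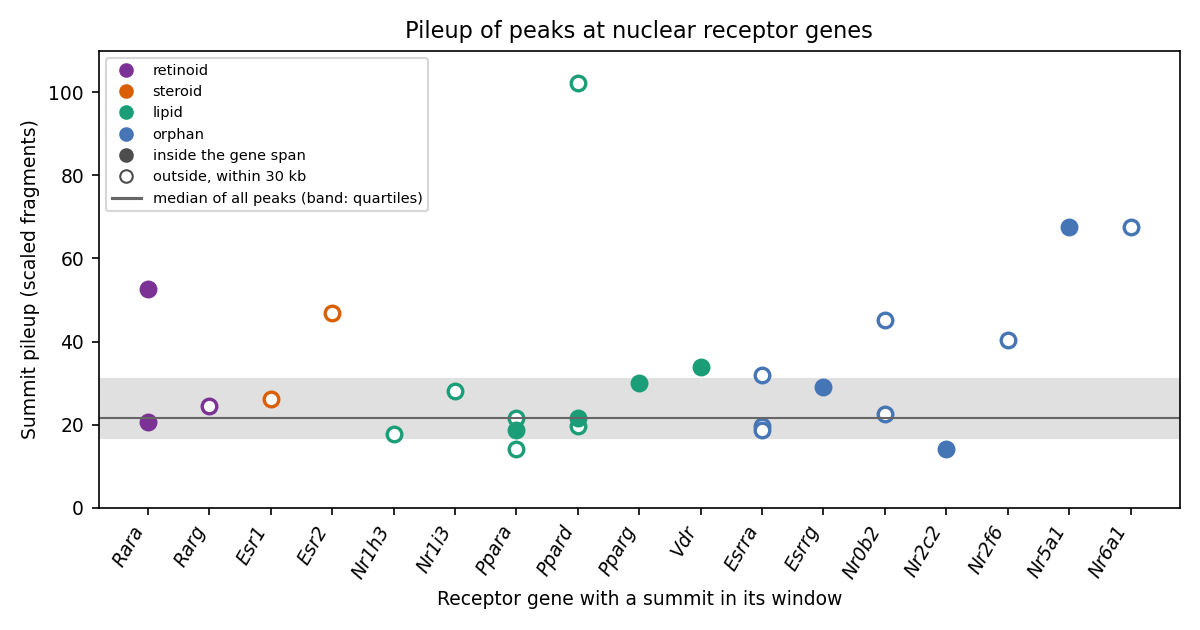
Summit pileup, in scaled fragments, of every peak at each of the 17 marked receptor genes, filled where the summit is inside the gene and open where it is outside. The line and band give the median and quartiles of all 7484 peaks, and Ppard, Nr5a1 with Nr6a1, Rara, Esr2, Nr0b2 and Nr2f6 have a peak of over 40.

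How far the receptor genes' share stood above that of similar-length genes turned on the window, the peaks kept and the way a summit is given to a gene. With the gene span alone, 8 receptor genes were marked, 22.9%, against 21.6% of similar-length genes and 13.7% of all other protein-coding genes. With 5 kb beyond the span 9 were marked, 25.7%, against 26.9% of similar-length genes and 19.1% of all others. With 10 kb 12 were marked, 34.3%, against 29.7% of similar-length genes and 22.1% of all others, and with 100 kb 25 were marked, 71.4%, against 59.4% of similar-length genes and 54.0% of all others. The receptor genes' share was thus close to that of similar-length genes out to 5 kb, and the gap opened in wider windows.

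Where a summit marked only its nearest protein-coding gene, 9 receptor genes were marked, 25.7%, against 27.0% of similar-length genes and 18.7% of all others. Without summits inside another gene 10 were marked, 28.6%, against 31.3% of similar-length genes and 23.7% of all others. Under both of these rules the share was below that of genes of similar length. Stronger peaks gave a wider gap in the other direction. With a −log10 q of 10 or more, 15 receptor genes were marked, 42.9%, against 25.2% of similar-length genes and 20.4% of all others. With peaks above the median fold 14 were marked, 40%, against 24.0% of similar-length genes and 19.5% of all others. The genes lost with the higher q were Nr1h3 and Nr2c2, and with the higher fold also Esrra.

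**Figure D5:**
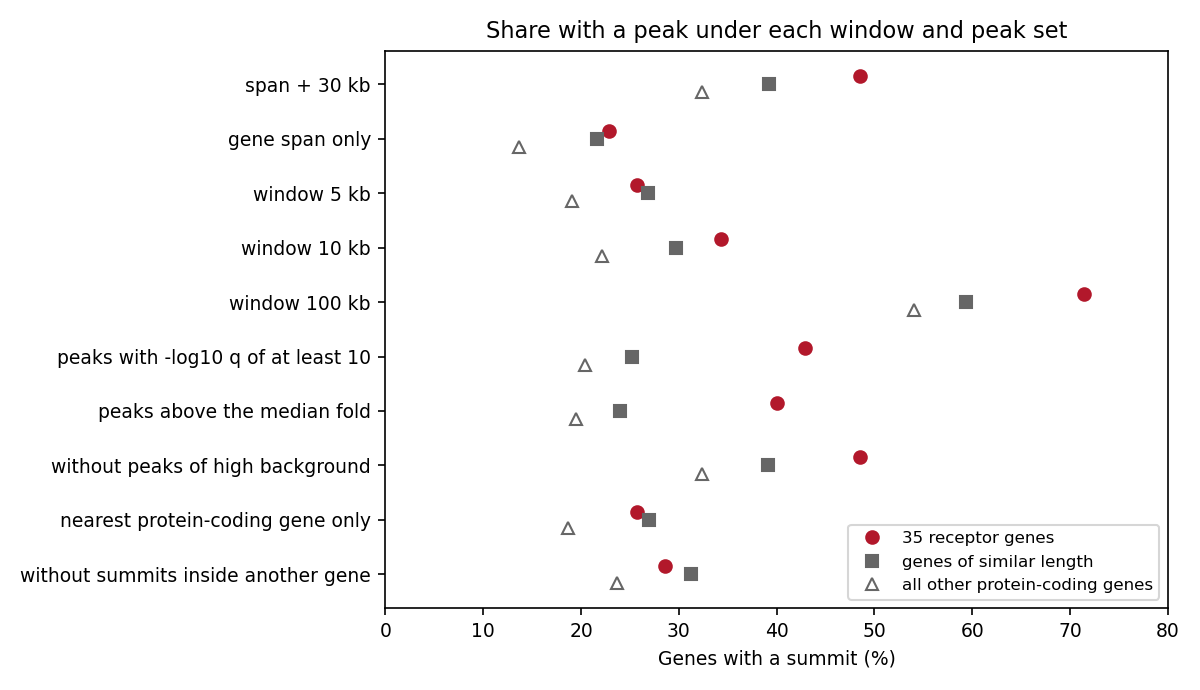
Share of genes with a summit, in percent, for the 35 receptor genes (red), for other genes of similar length (squares) and for all other protein-coding genes (triangles), under 10 windows, peak sets and rules of assignment. The red points lie furthest right of the squares with the stronger peaks and the 100 kb window, and left of them with the 5 kb window and the rules on neighbouring genes.

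Within the 35 genes, 8 of 11 in the NR1 subfamily were marked, and 2 of 9 in the NR2 subfamily. The NR1 subfamily here holds the retinoic acid, PPAR, LXR, FXR, vitamin D and xenobiotic receptors, and genes of their length would give 3.96 of 11. The thyroid hormone, Rev-erb and ROR receptors also belong to NR1 but are not among the 35. The NR2 subfamily here holds the HNF4, testicular, tailless (Nr2e1), photoreceptor and COUP-TF receptors, and similar-length genes would give 3.22 of 9. This grouping by subfamily was chosen after the values were seen, so it carries no test. In the NR3 subfamily 4 of 8 were marked, where genes of that length would give 4.0. None of the NR4 subfamily genes Nr4a2 and Nr4a3 was marked.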

How the data were processed

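The series holds 3 IP fractions and 1 input of mouse striatum, grouped from the labels, and 1 deposited peak list for all of them. Per the submitters' processing notes, mm10 (GRCm38) was the build, and the tools included MACS2 2.1.1.20160309.0 and Bowtie2 2.3.4.2, with no settings. Pooling of the fractions is not described in the sources used here. For each peak the authors deposited the summit pileup signal, the fold enrichment as a linear ratio, and −log10 of the q-value, per the file headers. Pileups lay on a grid of step 0.939, so summits could be read as 10 to 305 stacked fragments. Library depth was not analysed here, and exact (Clopper-Pearson) intervals cover counting error over genes only.

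Genes and promoter windows came from RefSeq GRCm38.p6, the build of the files. Python 3.11.15, pandas 2.3.3, numpy 2.4.6 and scipy 1.17.1 were used, and marking, similar-length shares and motif search were tested on simulated data with known answers. No enrichment test was made, since the 35 genes, the classes and the lists, though their rules use no measured value, were chosen with earlier results of these data known. All 35 genes are named, every marked gene with all its peaks. The intended count over the remaining nuclear receptor genes is not reported here. Classes follow ligands, with the vitamin D and xenobiotic receptors in the lipid class. Neighbouring genes are those whose span holds a summit, and the promoters of Rara, Prdx5 and Esrra were chosen for printing after the values were seen. Background was recovered as (pileup + 1) / fold − 1. Alternatives changed the window, the peaks kept, the assignment of summits and the range of similar lengths.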

Additional observations from a re-analysis of the deposited data

How the results depend on the processing

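No paired analysis was possible because the deposited list holds no value per library, and no fraction could be left out for the same reason. Of 74 values under an alternative, 50 stayed within 1.5 times and 24 moved by more. The marked count of 17 fell to 8 with the gene span alone, 9 with a 5 kb window, 9 for the nearest gene only, 10 without summits inside another gene, and 1 within 1 kb of a RefSeq start. It was 12 with a 10 kb window and 25 with 100 kb. The retinoid count was 1 with the span alone and with 5 kb. The steroid count was 0 with the span alone, 5 kb, 10 kb and the nearest gene, 1 without summits inside another gene, and 4 with 100 kb. The orphan count was 3 with the span alone, the nearest gene, or no summits inside another gene, 4 with 5 kb, and 11 with 100 kb. The lipid count stayed between 4 and 8. The similar-length share of 39.2% was 21.6% with the span alone, 59.4% with 100 kb, 25.2% for peaks of −log10 q from 10 upward and 24.0% above the median fold. It was 38.6% to 40.9% with a narrower or wider range of lengths or on autosomes only, and 40.0% when the number of protein-coding genes in the window was also similar. Of the promoter windows of marked genes, 5 held AGGTCA and 3 held AGTTCA, and DR4 was in 0 exactly and in 1 with 1 mismatch allowed in each half-site. The rules on RefSeq starts, on the number of genes in the window and on AGTTCA were chosen after seeing the data. Shorter windows hold fewer summits by construction, and the cause of the other shifts was not tested. The list holds no summit of under 10 fragments, so weaker enrichment at the 18 unmarked genes could not be seen in it.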
